A study of Mus musculus with 4 samples.

Results

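The interleukin 6 family was followed through 9 genes, taken by symbol from the 55414 genes of the deposited tables. They are the ligands Il6, Osm (oncostatin M) and Lif (leukaemia inhibitory factor), the ligand-specific receptor chains Il6ra, Osmr and Lifr, the shared receptor subunit Il6st, the transcription factor Stat3 and the feedback inhibitor Socs3. All 9 were present in the tables and each is described. The libraries came from livers of mice at 2 months of age with genotype S/S or A/A, letters that the labels do not spell out. The 4 groups compared were S/S mice 3 h after an intraperitoneal injection of 500 ng TNF, A/A mice 3 h after the same injection, S/S mice at baseline and A/A mice at baseline. The deposited tables of the A/A TNF sample carry the word control in their names, while its labels give 500 ng TNF, and the labels were followed. Each group was 1 droplet-based single-cell RNA library of the pooled liver cells of 2 mice, so no difference could be tested against the spread between animals and no p-value is given. The livers were perfused and digested in place, low-speed spins depleted hepatocytes, dead cells were removed on Ficoll, and sorting enriched macrophages and live cells, so the numbers of cells per type do not give the make-up of the liver.

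IL-6, oncostatin M and LIF are secreted cytokines that all signal through Il6st, the membrane protein known as gp130. IL-6 first binds Il6ra, whereas oncostatin M pairs gp130 with Osmr and LIF pairs it with Lifr. JAK kinases bound to the receptor then phosphorylate STAT3, which enters the nucleus and switches on genes that include Socs3, whose product in turn blocks the receptor. In the liver, this route is the main inducer of acute phase proteins in hepatocytes, and macrophages and neutrophils are known producers of the ligands during inflammation.

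Upstream sequences are shown for Il6 and Socs3, because Il6 was nearly absent at baseline and Socs3 was higher after TNF in every gate compared. RefSeq promoters of the GRCm38.p6 build were matched for 8 of the 9 genes, as 9 promoters, and Osm is named only. The 250 bases before the start were searched on both strands for an NF-kB motif (GGGANTTTC), a STAT motif (TTCNNNGAA) and an AP-1 motif (TGANTCA). Il6 lies on the plus strand of chromosome 5 and its window is chr5:30012864-30013113. Socs3 lies on the minus strand of chromosome 11 and its window is chr11:117969367-117969616. Both windows are written 5′ to 3′ along the gene, with motif matches in capitals.
Il6: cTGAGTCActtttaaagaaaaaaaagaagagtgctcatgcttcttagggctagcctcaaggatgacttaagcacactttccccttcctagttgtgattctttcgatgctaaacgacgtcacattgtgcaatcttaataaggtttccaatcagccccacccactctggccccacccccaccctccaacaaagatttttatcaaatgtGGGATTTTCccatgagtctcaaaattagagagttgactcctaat
Socs3: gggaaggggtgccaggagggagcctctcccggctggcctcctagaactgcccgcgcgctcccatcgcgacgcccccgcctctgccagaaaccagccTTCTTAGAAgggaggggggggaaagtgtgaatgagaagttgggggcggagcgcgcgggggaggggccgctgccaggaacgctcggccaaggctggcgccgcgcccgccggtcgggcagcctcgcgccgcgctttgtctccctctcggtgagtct
The Il6 window held 1 NF-kB match, GGGATTTTC, 44 to 36 bases before the start, and 1 AP-1 match, TGAGTCA, 249 to 243 bases before it. The Socs3 window held 1 STAT match, TTCTTAGAA, 154 to 146 bases before the start. The Lif window held 1 AP-1 match, and the promoters of Il6ra, Osmr, Lifr, Il6st and Stat3 held none of the 3 motifs. Among 32851 mouse promoters of the same length, 0.941% held the NF-kB motif, 7.02% the STAT motif and 6.75% the AP-1 motif. The NF-kB motif was first searched in a 10-letter form with 1 more C, which matched Il6 alone among the members and was held by 0.356% of promoters, so its share depends on the form used. The motifs were chosen after the expression values were seen. These matches describe letters in a window and not binding.

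Between 2830 and 6452 cells per library were kept, with median depths between 4723.5 and 6504.5 UMIs, a UMI being the tag of 1 captured RNA molecule. Each cell was assigned to 1 of 16 classes by a gate, which required at least 3 distinct markers of that class, and between 5.16% and 8.31% of cells per library passed no gate. Levels are given in CPM, the UMIs of a gene per 1000000 UMIs of all cells in the gate, which are not scaled by gene length and are not compared between genes. Brackets hold 95% intervals for counting error only. The Kupffer gate, for resident liver macrophages, held 388, 551, 487 and 409 cells in S/S TNF, A/A TNF, S/S baseline and A/A baseline. In the same order, the monocyte or macrophage gate (monocyte gate below) held 826, 403, 283 and 74 cells, and the neutrophil gate held 1089, 1453, 151 and 129 cells. The endothelial gate held 661, 1292, 34 and 324 cells, so the S/S baseline library was too small there for a TNF comparison. Its median depths were 5591 UMIs in S/S TNF, 2822 in A/A TNF, 1477.5 in S/S baseline and 1335 in A/A baseline. Whether differences between libraries in that gate go with depth was not tested. A sum over a gate does not distinguish a change in each cell from a change in which cells the gate holds. The authors' software version was the same within the TNF pair and within the baseline pair but differed between them, so it cannot be told apart from TNF, whereas the S/S against A/A comparisons do not cross it. The baseline libraries still differed in make-up, with the ribosomal RNA gene Rn18s at 5.98% of UMIs in S/S and 17.0% in A/A.

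A gene and gate were compared where both libraries had at least 50 cells in the gate and together at least 20 UMIs of the gene. Of 57 such combinations, 22 were at least 2-fold higher and 3 at least 2-fold lower in S/S TNF than in S/S baseline, where 8.99% of the combinations of all genes were higher and 21.7% lower. In A/A mice, 29 of 60 combinations were at least 2-fold higher and 8 at least 2-fold lower after TNF, against 12.8% and 18.6% of the combinations of all genes. Between genotypes after TNF, 4 of 67 combinations were at least 2-fold higher and 3 at least 2-fold lower in S/S than in A/A, against 3.57% and 3.52% over all genes. At baseline, 5 of 42 were higher and 6 lower in S/S than in A/A, against 7.35% and 4.59% over all genes. Members at least 2-fold higher after TNF made up a larger share than among all genes in both genotypes. Socs3 alone gave 10 of the 22 in S/S mice and 10 of the 29 in A/A mice. The members were chosen with earlier results of these data known, so the larger share is a description only. In no gate did the 10 leading genes include a marker of another class, although those of the Kupffer gate included Prg4, Cxcl13 and Serpinb2, described with Il6. Each cell was given to its best gate and no doublet caller was run.

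Il6, the cytokine that names the family, was scarce at baseline and abundant in few cells after TNF. The S/S TNF library held 850 Il6 UMIs in 168 cells, the A/A TNF library 409 UMIs in 155 cells, the S/S baseline library 6 UMIs in 4 cells and the A/A baseline library 19 UMIs in 10 cells. The Kupffer gate held 58.9% [55.5 to 62.3] of the S/S TNF UMIs and 41.6% [36.7 to 46.5] of the A/A TNF UMIs, and the monocyte gate held 32.1% of those in S/S TNF and 40.1% of those in A/A TNF. These 2 macrophage-lineage gates thus carried most of the Il6 in both TNF libraries.

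In the Kupffer gate, Il6 stood at 219 CPM in S/S TNF (501 UMIs), 88.9 CPM in A/A TNF (170 UMIs), 0 UMIs in S/S baseline, which allows up to 3.31 CPM, and 6.22 CPM in A/A baseline (7 UMIs). Both TNF libraries were high and both baseline libraries low or at 0. This made Il6 at least 66.3-fold higher after TNF in S/S mice and 14.3-fold [6.78 to 36.1] higher in A/A mice, where 22.8% and 17.3% of all genes in that gate were at least 2-fold higher. The share of Kupffer-gate cells with an Il6 UMI was 9.02% in S/S TNF and 8.89% in A/A TNF at median depths of 2535.5 and 2405 UMIs, against 0.405% in the erythroid gate of S/S TNF at 6442 UMIs. Thinned to 1000 UMIs per cell, these shares were 5.95% in S/S TNF and 3.83% in A/A TNF. After TNF the S/S sum was 2.47-fold [2.07 to 2.96] the A/A sum, where 5.01% of all genes in the gate were at least 2-fold higher in S/S and 6.24% lower.

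That genotype difference rested on a few barcodes. In the Kupffer gate, 15 barcodes in S/S TNF and 6 in A/A TNF carried at least 3 of the 6 genes Gata6, Prg4, Alox15, F5, Serpinb2 and Cxcl13, which are known from macrophages of the peritoneal cavity, and no Kupffer-gate barcode did at baseline. This set of genes was chosen after the values were seen. Cxcl13 was not confined to these barcodes. In the A/A TNF Kupffer gate they held 377 Cxcl13 UMIs and the other barcodes 3638, against 1357 and 231 in S/S TNF. The A/A baseline Kupffer gate held 123 Cxcl13 UMIs. The barcodes held 0 UMIs of Clec4f, the defining Kupffer cell lectin. Other markers of the Kupffer list were present, with 303 UMIs of Timd4, 618 of C1qa, 136 of Cd5l and 83 of Vsig4 in the S/S TNF barcodes and 239, 228, 27 and 10 UMIs in the A/A TNF barcodes. The barcodes had median depths of 29183 UMIs in S/S TNF and 33708.5 UMIs in A/A TNF, against 2353 and 2398 UMIs for the rest of the gate. They held 444 of the 501 Il6 UMIs of the gate in S/S TNF (88.6%) and 58 of the 170 in A/A TNF (34.1%). Without them, Il6 in the Kupffer gate was 30.8 CPM in S/S TNF and 64.6 CPM in A/A TNF, a ratio of 0.476 [0.340 to 0.661], so the direction between genotypes turned round. The difference after TNF stayed in place without them, at least 9.31-fold in S/S mice and 10.4-fold [4.88 to 26.4] in A/A mice. What these barcodes contribute to the genotype difference beyond these sums was not tested.

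**Figure D1:**
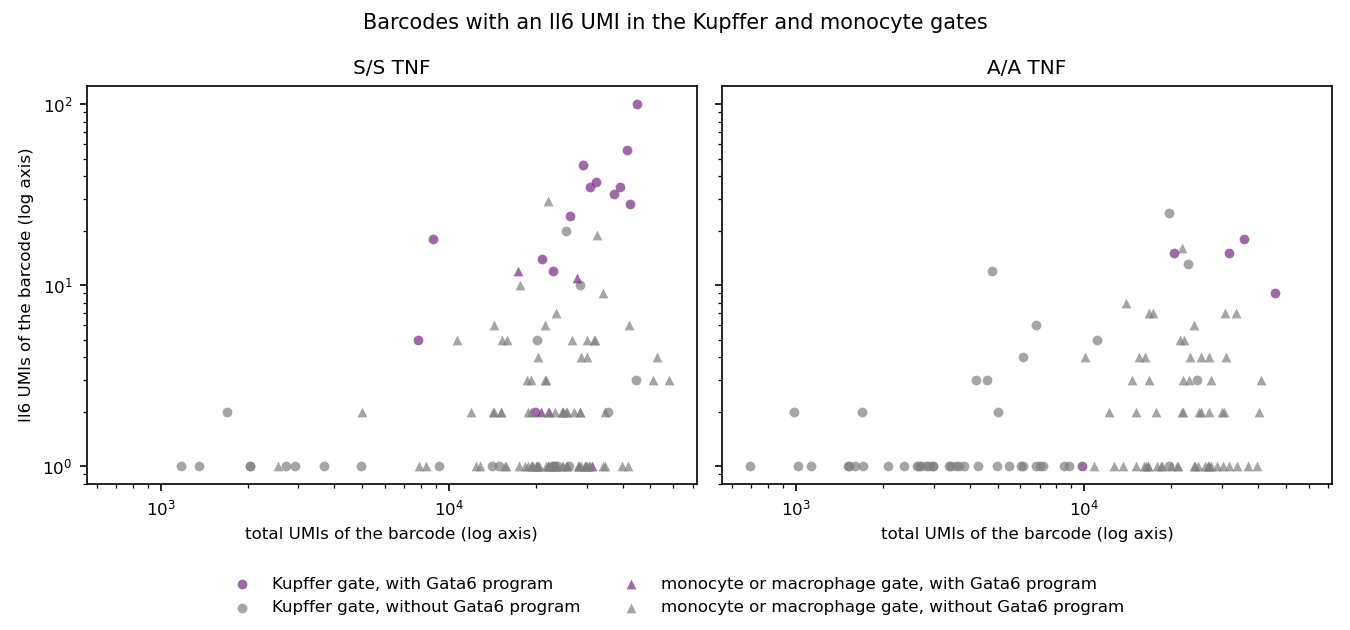
Il6 UMIs against total UMIs of each Il6-positive barcode (both axes logarithmic) in the Kupffer gate (circles) and monocyte gate (triangles) of S/S TNF (left) and A/A TNF (right), with barcodes carrying the Gata6-associated genes in purple. The S/S TNF barcodes with the most Il6, up to 100 UMIs each, are mostly purple, while the top barcode of A/A TNF has 25.

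Il6 was also concentrated among individual cells. The 10 barcodes with the most Il6 held 49.6% of all Il6 UMIs of the S/S TNF library and 33.7% of those of the A/A TNF library. Of these 10, the Gata6-associated genes marked 9 in S/S TNF and 4 in A/A TNF. In the plot of Il6 by barcode, most positive cells of either genotype held a small number of UMIs. The highest barcode held 100 Il6 UMIs in S/S TNF and 25 in A/A TNF, with intermediate counts below it.

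In the monocyte gate, Il6 stood at 16.5 CPM in S/S TNF (273 UMIs), 20 CPM in A/A TNF (164 UMIs), 1.27 CPM in S/S baseline (5 UMIs) and 9.0 CPM in A/A baseline (9 UMIs). The TNF libraries were close to each other, and Il6 was 13-fold [5.51 to 40.4] higher after TNF in S/S mice and 2.22-fold [1.14 to 4.94] higher in A/A mice. The A/A baseline value rested on 1 barcode that held 7 of the 9 UMIs, and leaving out the top barcode of each library moved the A/A log2 ratio to 2.65, against 1.07 with it. Between genotypes after TNF the ratio was 0.827 [0.679 to 1.01]. In every other gate of at least 50 cells, Il6 stayed at or under 3.37 CPM in all libraries.

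Osm, which is made by myeloid cells and acts on endothelium and hepatocytes, had neutrophils as its main source after TNF. The S/S TNF library held 2261 Osm UMIs, the A/A TNF library 2361, the S/S baseline library 212 and the A/A baseline library 62. The neutrophil gate held 63.6% of them in S/S TNF, 75.4% in A/A TNF, 9.43% in S/S baseline and 33.9% in A/A baseline. The number of neutrophil-gate cells was also higher in the TNF libraries, so levels within the gate are given next.

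Within the neutrophil gate, Osm stood at 226 CPM in S/S TNF, 209.8 CPM in A/A TNF, 28.4 CPM in S/S baseline and 31.6 CPM in A/A baseline. It was 7.96-fold [5.14 to 13.1] higher after TNF in S/S mice and 6.65-fold [4.33 to 10.8] higher in A/A mice, in a gate where 11.5% and 16.4% of all genes were at least 2-fold higher. The 2 genotypes differed little from each other, with a ratio of 1.08 [1.01 to 1.16] after TNF and 0.90 [0.463 to 1.74] at baseline. The 12 neutrophil markers of that gate summed to 153000 CPM in S/S TNF, 152000 CPM in A/A TNF, 106000 CPM in S/S baseline and 44000 CPM in A/A baseline. The gate thus held unlike shares of marker RNA, most of all in A/A baseline. Its levels of Osm, and of Il6ra, Stat3 and Socs3 below, were not compared relative to those markers. With each cell thinned to 1000 UMIs, an Osm UMI was seen in 15.4% of neutrophil-gate cells in S/S TNF, 14.2% in A/A TNF, 3.5% in S/S baseline and 1.56% in A/A baseline. Unthinned, the shares were 37.3% in both TNF libraries, 9.27% in S/S baseline and 10.1% in A/A baseline, against 3.38% in the erythroid gate of S/S TNF. Unlike Il6, Osm was spread over many cells, since the top 10 neutrophil-gate cells held 12.4% of its UMIs in S/S TNF and 8.09% in A/A TNF.

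In the monocyte gate, Osm stood at 32.4 CPM in S/S TNF, 29.1 CPM in A/A TNF, 25.4 CPM in S/S baseline and 1.0 CPM in A/A baseline. The TNF libraries and S/S baseline were thus alike and the A/A baseline library, with 74 cells and 1 Osm UMI, was low. Osm was 1.28-fold [1.03 to 1.60] higher after TNF in S/S mice and 29.1-fold [5.17 to 1154] higher in A/A mice, where 14.4% of all genes were at least 2-fold higher, and at baseline it was 25.4-fold [4.45 to 1012] higher in S/S mice than in A/A mice. In S/S baseline the 100 UMIs came from 30 of 283 cells, and 5 of these held 57.0% of them. Neutrophil markers in that gate would carry 0.201 CPM of Osm at the ratio seen in the neutrophil gate of the same library.

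Smaller Osm sums were present in other gates. The T cell gate held 8.04 CPM in S/S TNF, 7.98 CPM in A/A TNF, 5.58 CPM in S/S baseline and 3.87 CPM in A/A baseline. The gate for natural killer cells or type 1 innate lymphoid cells (NK gate) held 8.75, 14.9, 8.94 and 2.32 CPM in the same order. At the Osm ratio of the neutrophil gate, the neutrophil markers in the NK gate would carry 3.81 CPM in S/S TNF and 2.68 CPM in A/A TNF. In the Kupffer gate Osm was 15.3 CPM in S/S TNF, 14.6 CPM in A/A TNF, 1.10 CPM in S/S baseline and 2.67 CPM in A/A baseline. Without the barcodes of the Gata6-associated genes, the TNF values of the Kupffer gate were 11.9 CPM in S/S and 4.04 CPM in A/A, a ratio of 2.94 [1.21 to 8.15], against 1.05 with them. At the Osm ratio of the monocyte gate, the monocyte markers of the whole Kupffer gate would carry 13.5 CPM in S/S TNF and 6.02 CPM in A/A TNF.

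**Figure D2:**
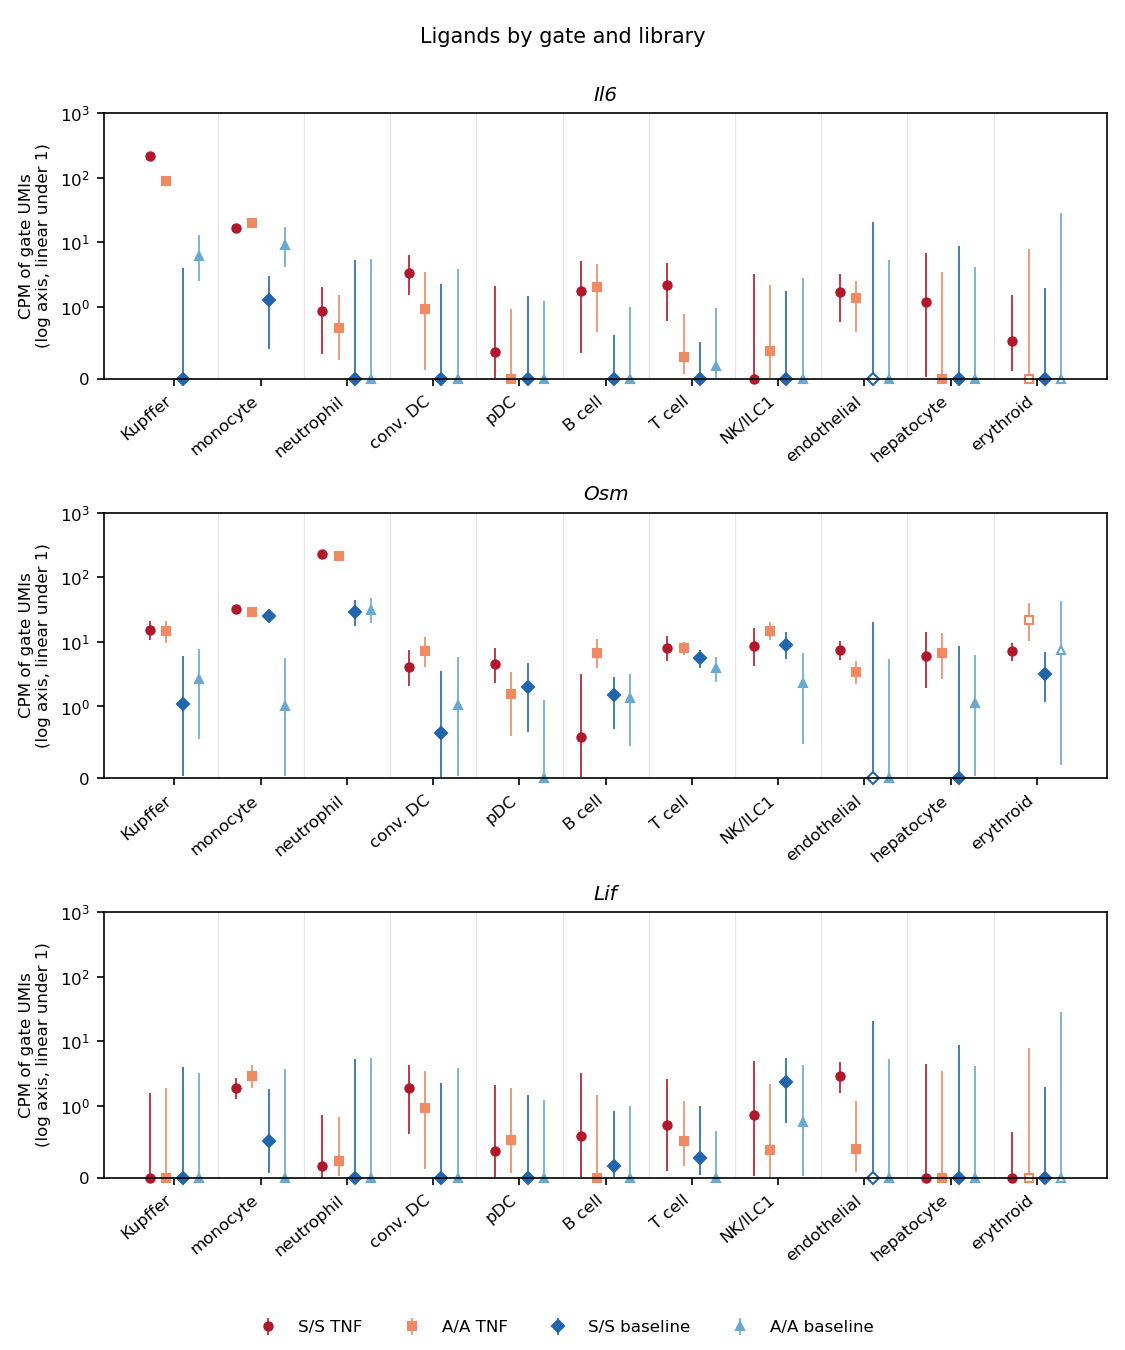
Levels of Il6, Osm and Lif by gate and library, in CPM of the gate (axis linear under 1 and logarithmic above), with 95% Poisson intervals as bars and open symbols for gates under 50 cells. Il6 reached 219 CPM in the Kupffer gate of S/S TNF and Osm 226 CPM in the neutrophil gate of S/S TNF, while Lif stayed low in every gate of at least 50 cells.

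Lif, a cytokine known for keeping stem cells undifferentiated and for inducing acute phase genes, was the rarest ligand. The S/S TNF library held 67 Lif UMIs, the A/A TNF library 45, the S/S baseline library 10 and the A/A baseline library 2. The monocyte gate held 31 UMIs in S/S TNF, 24 in A/A TNF, 2 in S/S baseline and 0 in A/A baseline, and it was the only gate in which TNF and baseline could be compared. The ratio in S/S mice was 3.70 [0.941 to 31.9], which includes 1, and the 24 A/A UMIs set against 0 in a small baseline gate gave no usable bound, although the added 1 CPM placed it among the combinations at least 2-fold higher. The endothelial gate held 15 Lif UMIs in S/S TNF and 3 in A/A TNF, and the Kupffer, hepatocyte and erythroid gates held 0 in all libraries.

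Il6ra, the IL-6 binding chain that can also be shed to act on other cells, was lower after TNF in neutrophils and monocytes of both genotypes. In the neutrophil gate it stood at 92.5 CPM in S/S TNF, 102 CPM in A/A TNF, 283 CPM in S/S baseline and 525 CPM in A/A baseline. Both TNF libraries were low and alike, and the A/A baseline library was the highest. The TNF ratio was 0.327 [0.278 to 0.386] in S/S mice and 0.194 [0.171 to 0.220] in A/A mice, in a gate where 39.1% and 30.8% of all genes were at least 2-fold lower. At baseline the S/S level was 0.539 [0.450 to 0.643] of the A/A level.

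In the monocyte gate too, both TNF libraries lay under both baseline libraries, with Il6ra at 86.9 CPM in S/S TNF, 75.2 CPM in A/A TNF, 204 CPM in S/S baseline and 265 CPM in A/A baseline. TNF ratios there were 0.426 [0.390 to 0.465] in S/S mice and 0.284 [0.246 to 0.329] in A/A mice, where 22.4% and 23.4% of all genes were at least 2-fold lower. The conventional dendritic cell gate held 80.5, 85.5, 101 and 215 CPM in the same order of libraries, so that A/A baseline stood above the other libraries. Il6ra was lowest in the NK gate, at or under 2.32 CPM in all libraries, and was 10.9 CPM in S/S TNF, 12.4 CPM in A/A TNF, 7.1 CPM in S/S baseline and 3.36 CPM in A/A baseline in the hepatocyte gate.

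In the Kupffer gate, Il6ra moved in opposite directions. It stood at 53.4 CPM in S/S TNF, 34.5 CPM in A/A TNF, 19.8 CPM in S/S baseline and 69.3 CPM in A/A baseline. After TNF it was 2.69-fold [1.63 to 4.69] higher in S/S mice and 0.498 [0.353 to 0.70] of baseline in A/A mice, where 14.5% of all genes in the gate were at least 2-fold lower. The baseline libraries differed most, with S/S at 0.286 [0.161 to 0.482] of A/A, where 15.2% of all genes in the gate were at least 2-fold lower. In that baseline comparison the median log2 ratio was -0.43 for genes with 30 to 100 kb of intron, a class that includes Il6ra, and 0.29 for genes with under 10 kb. The monocyte markers in the Kupffer gate would carry, at the Il6ra ratio of the monocyte gate, 36.3 CPM in S/S TNF, 15.6 CPM in A/A TNF, 29.6 CPM in S/S baseline and 48.9 CPM in A/A baseline. Without the barcodes of the Gata6-associated genes the TNF ratios were 2.78 in S/S mice and 0.499 in A/A mice. Whether the genotypes differ in their response was not tested, since each group was 1 library.

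Il6ra, Lifr and Stat3 have 40.5, 96.1 and 44.9 kb of intron, and in several gates genes of that size were on balance lower in TNF libraries. In the neutrophil gate, the median log2 TNF ratio of genes with 30 to 100 kb of intron was -1.16 in S/S mice and -0.90 in A/A mice, against -0.29 and 0.10 for genes with under 10 kb. In the monocyte gate, these medians were -0.45 in S/S and -0.48 in A/A mice for the long-intron genes, against -0.01 and 0.26 for the short ones. In the Kupffer and hepatocyte gates the long-intron medians were above 0, at 0.43 and 0.38 in S/S mice and 0.09 and 0.23 in A/A mice. Osmr and Il6st, with 49.3 and 34.9 kb, are of the same size class, and in the A/A endothelial gate Osmr was higher after TNF and the interval of Il6st included 1. The software version that differs between TNF and baseline libraries has a setting on counting reads in introns, and how it was set is not given in the sources used here. How much of the lower Il6ra, Lifr and Stat3 levels goes with intron length was not tested. Il6, Osm and Socs3 have 4.44, 2.33 and 1.08 kb of intron.

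**Figure D3:**
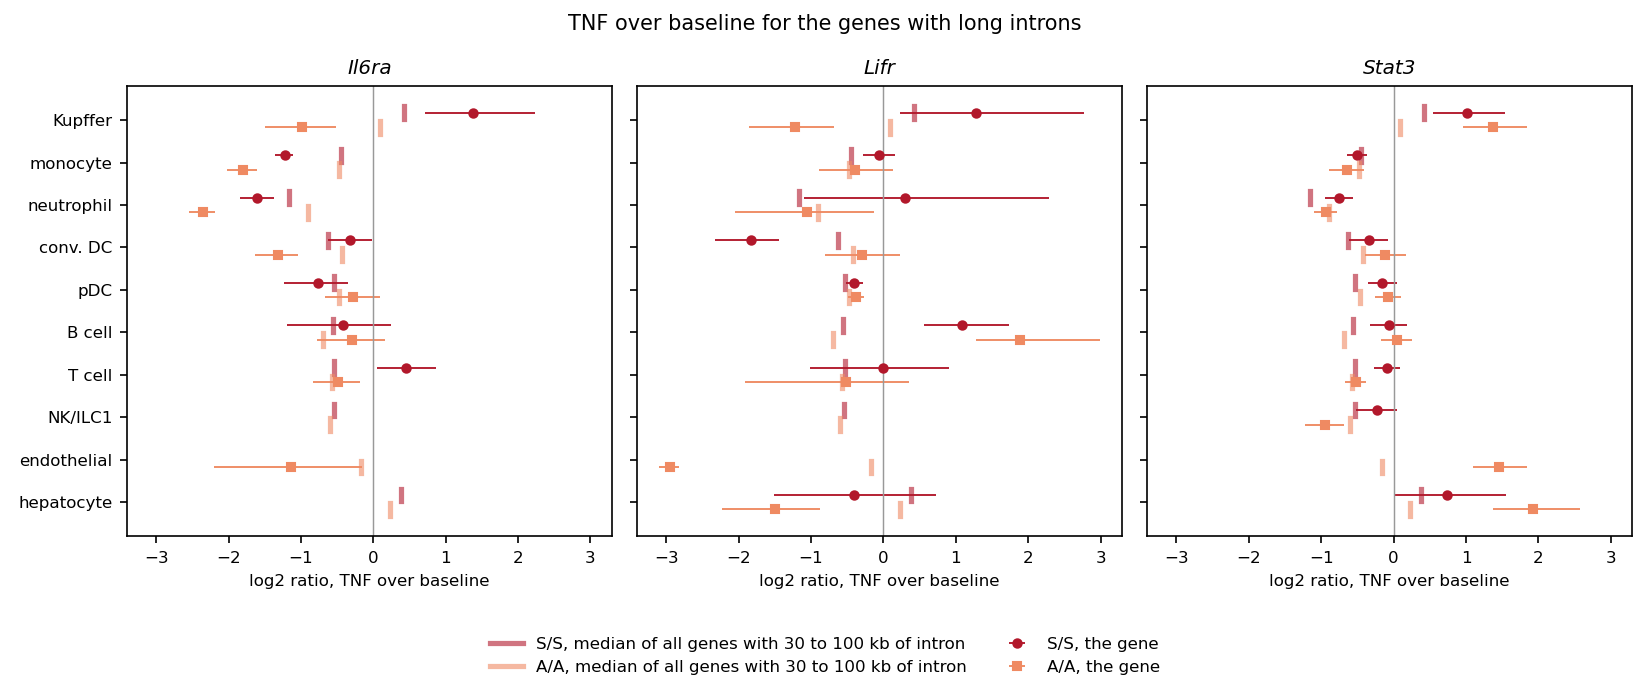
Log2 ratio of TNF to baseline levels by gate, with a panel each for Il6ra, Lifr and Stat3. Circles are S/S mice and squares are A/A mice, with 95% counting intervals. Thick ticks give the median of all genes with 30 to 100 kb of intron in the same gate and genotype. Il6ra in neutrophils lies under the tick at -1.60 in S/S and -2.36 in A/A mice, and endothelial Stat3 in A/A mice lies above it. Neutrophil Stat3 lies above the tick at -0.76 in S/S mice and close to it at -0.94 in A/A mice.

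Osmr, the oncostatin M chain, was carried mainly by the endothelial gate. It stood there at 100.2 CPM in S/S TNF (526 UMIs), 150.4 CPM in A/A TNF (1111 UMIs), 111 CPM in S/S baseline (20 UMIs in 34 cells) and 56.9 CPM in A/A baseline (39 UMIs). A/A TNF was the highest library and A/A baseline the lowest. In A/A mice Osmr was 2.64-fold [1.92 to 3.74] higher after TNF, where 21.8% of all genes in the gate were at least 2-fold higher, and after TNF the S/S level was 0.666 [0.60 to 0.740] of the A/A level. Of endothelial-gate cells with an Osmr UMI, 98.3% also had an Il6st UMI in S/S TNF and 94.5% in A/A TNF, against 81.4% and 77.5% of all cells in the gate. For cells with a Lifr UMI these shares were 94.4% in S/S TNF and 92.8% in A/A TNF. The cells were not matched for depth, and a deeper cell more often shows a UMI of either gene. The shares therefore cannot tell joint expression from depth.

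Outside the endothelial gate Osmr was low. The Kupffer gate held 2.63 CPM in S/S TNF, 16.7 CPM in A/A TNF, 0 in S/S baseline and 2.67 CPM in A/A baseline. The 12 endothelial markers summed in that gate to 587 CPM in S/S TNF, 1090 CPM in A/A TNF, 214 CPM in S/S baseline and 588 CPM in A/A baseline. At the ratio of Osmr to those markers in the endothelial gate of the same library, the Kupffer gate would hold 8.96, 24.1, 1.81 and 2.43 CPM of Osmr. The observed Kupffer-gate levels were at or under those values in the TNF libraries and in S/S baseline and close to it in A/A baseline. The monocyte gate held 53 Osmr UMIs in S/S TNF, 21 in A/A TNF and 0 in both baseline libraries, at least 4.21-fold higher after TNF in S/S mice, and its 3.21 CPM in S/S TNF was under the 11.4 CPM of the same endothelial calculation.

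Lifr, the LIF chain, was present in endothelial cells and in plasmacytoid dendritic cells. In the endothelial gate it stood at 185 CPM in S/S TNF, 137 CPM in A/A TNF, 601 CPM in S/S baseline and 1062 CPM in A/A baseline. Both TNF libraries lay under both baseline libraries. In A/A mice Lifr was 0.129 [0.117 to 0.142] of baseline after TNF, in a gate where 18.1% of all genes were at least 2-fold lower and where the median log2 ratio of genes with 30 to 100 kb of intron was -0.17. The 12 endothelial markers themselves summed to 6564 CPM in S/S TNF, 6788 CPM in A/A TNF, 13120 CPM in S/S baseline and 13750 CPM in A/A baseline in that gate. After TNF the S/S level of Lifr was 1.35-fold [1.24 to 1.48] the A/A level.

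In the plasmacytoid dendritic cell gate (pDC gate), Lifr varied less, with 403 CPM in S/S TNF, 363 CPM in A/A TNF, 532 CPM in S/S baseline and 472 CPM in A/A baseline. The TNF ratios were 0.757 [0.698 to 0.821] in S/S mice and 0.769 [0.714 to 0.830] in A/A mice. In the B cell gate Lifr was low and higher after TNF, at 24.9 CPM in S/S TNF, 20 CPM in A/A TNF, 11.2 CPM in S/S baseline and 4.67 CPM in A/A baseline. With barcodes of several gates left out, the B cell log2 ratio of Lifr in S/S mice was 0.34, against 1.09 with them. In the hepatocyte gate Lifr was 23.0 CPM in S/S TNF, 26.7 CPM in A/A TNF, 30.8 CPM in S/S baseline and 77.2 CPM in A/A baseline, and the A/A ratio was 0.345 [0.214 to 0.543].

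Kupffer-gate Lifr, like Il6ra, was higher after TNF in S/S mice and lower in A/A mice. It stood at 20.1 CPM in S/S TNF, 23.0 CPM in A/A TNF, 7.72 CPM in S/S baseline and 55.1 CPM in A/A baseline, which gave ratios of 2.61 [1.17 to 6.85] in S/S mice and 0.417 [0.277 to 0.624] in A/A mice. Without the barcodes of the Gata6-associated genes the S/S ratio was 2.24 [0.971 to 6.01], an interval that includes 1, and the A/A ratio was 0.398 [0.258 to 0.605]. At the endothelial ratio of each library, the endothelial markers in the Kupffer gate would carry 16.5 CPM of Lifr in S/S TNF, 21.9 CPM in A/A TNF, 9.79 CPM in S/S baseline and 45.4 CPM in A/A baseline. The observed and calculated levels ran in the same order over the 4 libraries. Their part in the TNF ratios of the Kupffer gate was not tested.

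**Figure D4:**
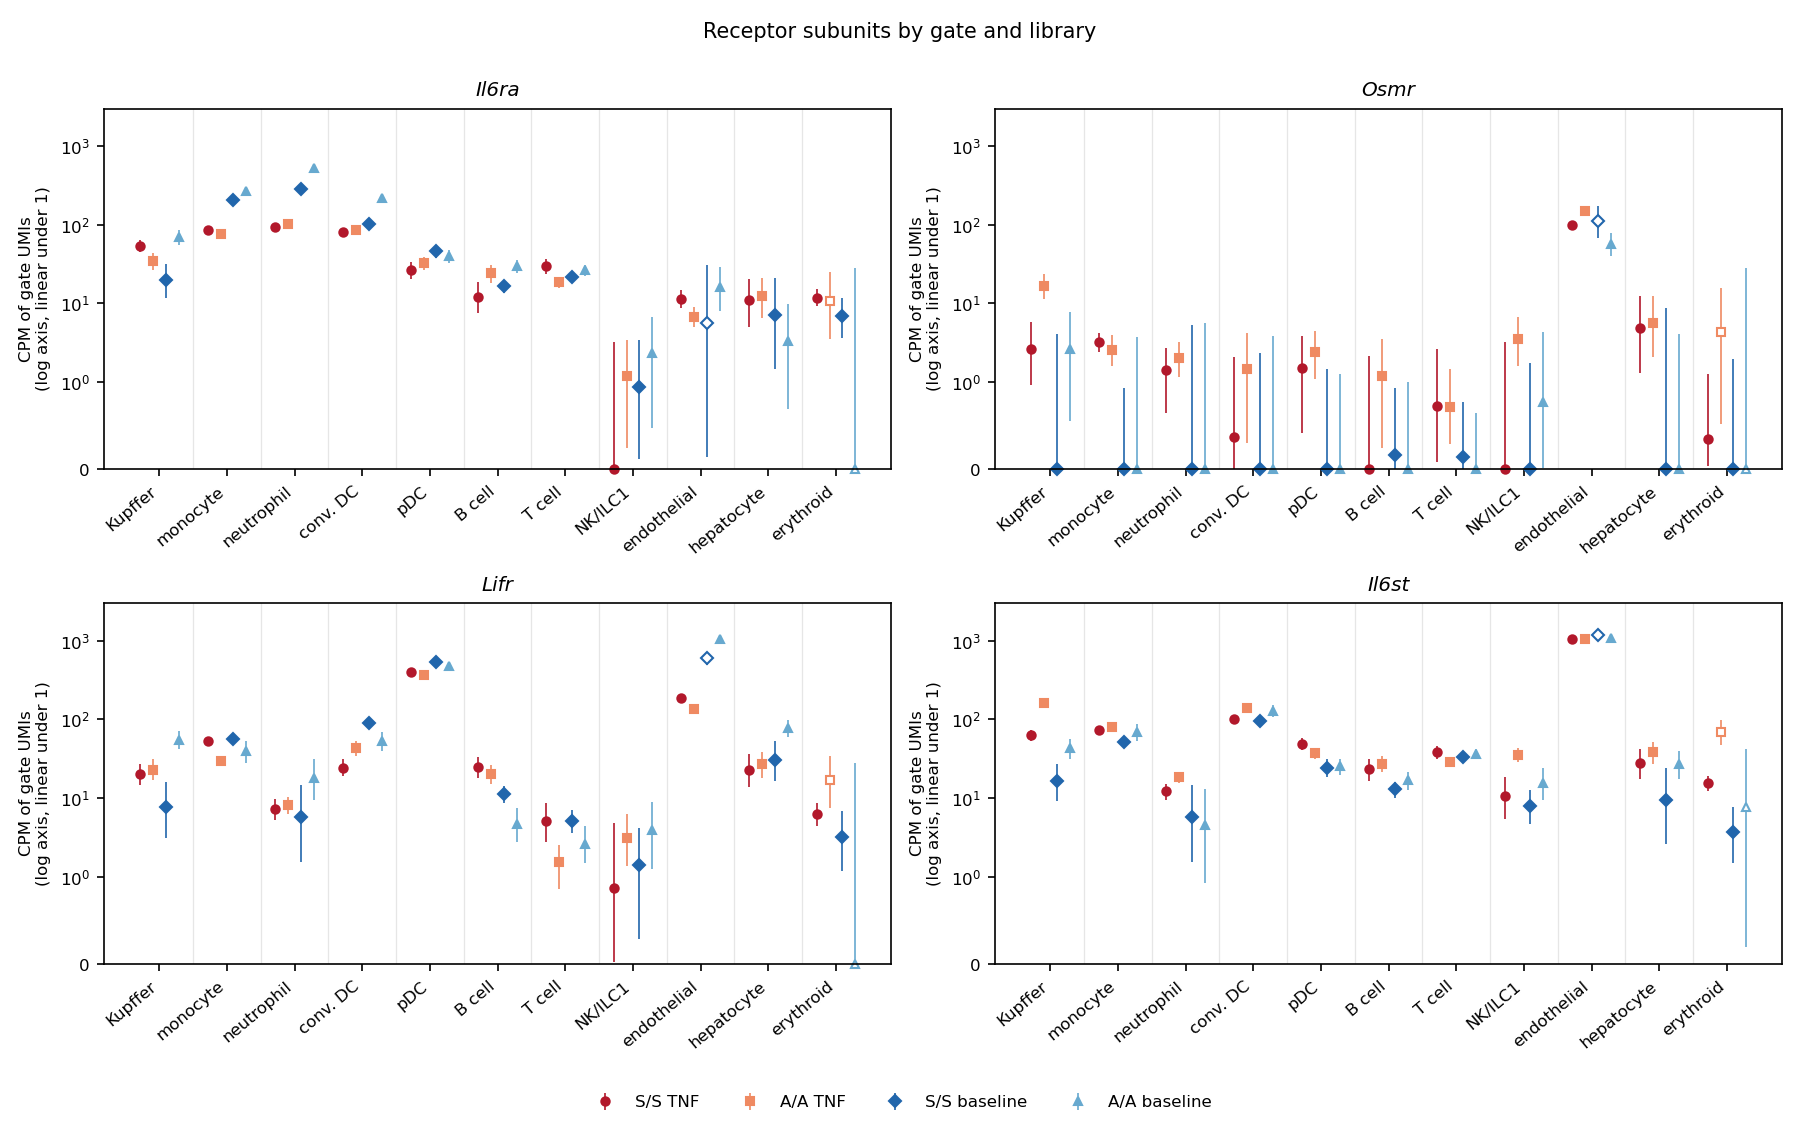
Levels of Il6ra, Osmr, Lifr and Il6st by gate and library, in CPM of the gate (axis linear under 1 and logarithmic above), with 95% Poisson intervals as bars and open symbols for gates under 50 cells. Osmr and Il6st are highest in the endothelial gate, where Il6st is 1044 CPM in S/S TNF and 1078 CPM in A/A baseline, and Il6ra is highest in the baseline neutrophil gates.

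Il6st, the shared signal-transducing subunit, was highest in the endothelial gate and nearly constant there. It stood at 1044 CPM in S/S TNF, 1063 CPM in A/A TNF, 1168 CPM in S/S baseline and 1078 CPM in A/A baseline. The ratio was 0.987 [0.915 to 1.07] for A/A TNF against A/A baseline and 0.981 [0.948 to 1.02] for S/S TNF against A/A TNF. Both intervals include 1, whereas in the same gate of A/A mice Osmr was higher and Lifr lower after TNF. The endothelial markers of that gate, given with Lifr, were also lower in the TNF libraries. Levels of Il6st and Osmr relative to those markers were not compared between TNF and baseline. The conventional dendritic cell gate held 100.4 CPM in S/S TNF, 139 CPM in A/A TNF, 96.3 CPM in S/S baseline and 129 CPM in A/A baseline.

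In the Kupffer gate, Il6st was 63.0 CPM in S/S TNF, 161 CPM in A/A TNF, 16.5 CPM in S/S baseline and 42.7 CPM in A/A baseline. It was 3.81-fold [2.24 to 6.99] higher after TNF in S/S mice and 3.76-fold [2.77 to 5.21] higher in A/A mice, and S/S was 0.393 [0.320 to 0.480] of A/A after TNF and 0.388 [0.202 to 0.704] of A/A at baseline. At the endothelial ratio, the endothelial markers in the Kupffer gate would carry 93.3 CPM of Il6st in S/S TNF, 171 CPM in A/A TNF, 19.0 CPM in S/S baseline and 46.1 CPM in A/A baseline. The observed level was under the calculated level in all 4 libraries, of which S/S baseline rests on an endothelial gate of 34 cells. The same held for the NK gate of S/S TNF, with 10.5 CPM of Il6st observed and 10.6 CPM calculated, while the NK gate of A/A TNF held 35.7 CPM against 28.6 CPM calculated. In conventional dendritic cells the calculated levels were 42.7, 35.0, 19.5 and 20.5 CPM, well under those observed.

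Stat3, the transcription factor that all of these receptors activate, was expressed in every gate and differed less than its upstream ligands. In the neutrophil gate it stood at 225 CPM in S/S TNF, 306 CPM in A/A TNF, 381 CPM in S/S baseline and 586 CPM in A/A baseline, with TNF ratios of 0.591 [0.519 to 0.676] in S/S mice and 0.521 [0.469 to 0.581] in A/A mice. In the endothelial gate it was 265 CPM in S/S TNF, 257 CPM in A/A TNF, 195 CPM in S/S baseline and 93.3 CPM in A/A baseline, and 2.75-fold [2.15 to 3.59] higher after TNF in A/A mice. Neutrophils and endothelium therefore differed in direction in A/A mice. In A/A neutrophils the log2 ratio of Stat3 was -0.94, close to the median of -0.90 for genes with 30 to 100 kb of intron. In S/S neutrophils Stat3 was at -0.76 and that median at -1.16. In the A/A endothelial gate the median of such genes was -0.17.

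The Kupffer gate held 94.1 CPM of Stat3 in S/S TNF, 126 CPM in A/A TNF, 46.3 CPM in S/S baseline and 48.0 CPM in A/A baseline. This was 2.03-fold [1.46 to 2.90] higher after TNF in S/S mice and 2.62-fold [1.95 to 3.59] higher in A/A mice. The hepatocyte gate held 79.9 CPM in S/S TNF, 130.4 CPM in A/A TNF, 47.3 CPM in S/S baseline and 33.6 CPM in A/A baseline, a 1.69-fold [1.01 to 2.94] and a 3.88-fold [2.60 to 5.98] difference after TNF. Unlike Il6st, the Kupffer-gate Stat3 exceeded the 23.7, 41.3, 3.17 and 3.99 CPM that the endothelial markers would carry.

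Socs3, the feedback inhibitor induced by STAT3, was the member with the widest difference after TNF. It was at least 2-fold higher in 10 of 10 gates compared in S/S mice and in 10 of 10 in A/A mice, with every counting interval above 1. Of the combinations of all genes and gates, 8.99% were at least 2-fold higher in S/S and 12.8% in A/A mice. The gates share libraries, and neutrophil markers were present in several of them, as given below, so they are not separate measurements. The median log2 ratio of Socs3 over gates was 1.86 in S/S mice and 2.20 in A/A mice. In the neutrophil gate Socs3 stood at 962 CPM in S/S TNF, 842 CPM in A/A TNF, 210.2 CPM in S/S baseline and 174 CPM in A/A baseline, ratios of 4.58 [3.89 to 5.42] in S/S mice and 4.83 [4.02 to 5.85] in A/A mice. Both TNF libraries lay well above both baseline libraries. With each cell thinned to 1000 UMIs, 53.8% of neutrophil-gate cells in S/S TNF, 49.4% in A/A TNF, 23.1% in S/S baseline and 14.1% in A/A baseline had a Socs3 UMI. Unthinned, the shares were 86.9%, 84.8%, 45.7% and 49.6% in the same order, against 11.2% in the erythroid gate of S/S TNF.

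The Kupffer gate held 138 CPM of Socs3 in S/S TNF, 70.0 CPM in A/A TNF, 9.92 CPM in S/S baseline and 4.44 CPM in A/A baseline. Its ratios after TNF were 14.0 in S/S mice and 15.8 in A/A mice. S/S exceeded A/A after TNF by 1.98-fold [1.61 to 2.44], and by 1.62-fold [1.26 to 2.10] without the barcodes of the Gata6-associated genes. The 10 monocyte markers, some of which Kupffer cells also express, summed in the Kupffer gate to 8505 CPM in S/S TNF, 5031 CPM in A/A TNF, 3534 CPM in S/S baseline and 3162 CPM in A/A baseline. At the Socs3 ratio of the monocyte gate they would carry 102 CPM in S/S TNF, 48.0 CPM in A/A TNF, 15.2 CPM in S/S baseline and 9.6 CPM in A/A baseline. Their part in the Kupffer-gate differences was not tested. In the monocyte gate, Socs3 was 244 CPM in S/S TNF, 232 CPM in A/A TNF, 105 CPM in S/S baseline and 52.0 CPM in A/A baseline, so the genotypes were alike after TNF and S/S was 2.02-fold [1.51 to 2.74] higher at baseline.

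In the endothelial gate, Socs3 was 134.5 CPM in S/S TNF, 46.3 CPM in A/A TNF, 16.7 CPM in S/S baseline and 13.1 CPM in A/A baseline. S/S was thus 2.91-fold [2.55 to 3.32] higher than A/A after TNF, in a gate where 3.96% of all genes were at least 2-fold higher. The median depth of that gate was 5591 UMIs in S/S TNF and 2822 UMIs in A/A TNF, and the part of depth was not tested. The hepatocyte gate showed the same direction, with 78.7 CPM in S/S TNF, 27.6 CPM in A/A TNF, 2.37 CPM in S/S baseline and 6.71 CPM in A/A baseline, and S/S 2.85-fold [1.81 to 4.58] higher after TNF, where 7.80% of all genes were. In these gates the neutrophil markers present would carry, at the Socs3 ratio of the neutrophil gate, 12.2 CPM in S/S TNF and 7.66 CPM in A/A TNF for endothelium, and 20.1 CPM in S/S TNF and 7.02 CPM in A/A TNF for hepatocytes. The monocyte markers would carry, at the monocyte gate's ratio, 10.3 CPM in S/S TNF and 5.1 CPM in A/A TNF for endothelium, and 6.83 CPM in S/S TNF and 2.73 CPM in A/A TNF for hepatocytes. Their part in the genotype differences was not tested.

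In the lymphoid and dendritic cell gates, too, Socs3 was higher after TNF in both genotypes. The B cell gate held 68.8 CPM in S/S TNF, 60.1 CPM in A/A TNF, 7.0 CPM in S/S baseline and 4.67 CPM in A/A baseline. The T cell gate held 71.6, 50.5, 24.4 and 9.14 CPM in the same order, and at baseline S/S was 2.67-fold [1.95 to 3.71] higher than A/A. The NK gate held 32.4, 23.1, 11.8 and 5.41 CPM, and the pDC gate held 35.1 CPM in S/S TNF and 25.6 CPM in A/A TNF. At the Socs3 ratio of the neutrophil gate, neutrophil markers in the NK gate would carry 16.2 CPM in S/S TNF and 10.8 CPM in A/A TNF. At baseline they would carry 0.0934 CPM in S/S and 0.107 CPM in A/A mice. Their part in the NK-gate differences was not tested. In conventional dendritic cells Socs3 was 109 CPM in S/S TNF, 58.5 CPM in A/A TNF, 45.6 CPM in S/S baseline and 7.24 CPM in A/A baseline, and the baseline ratio of S/S to A/A was 6.30 [2.91 to 16.2]. Genes with under 10 kb of intron, as Socs3 has, were on balance higher in S/S at baseline. Their median log2 ratio was 0.379 in conventional dendritic cells, 0.323 in the T cell gate and 0.265 in the monocyte gate. The erythroid gate held 60.6 CPM in S/S TNF and 4.77 CPM in S/S baseline, and its neutrophil markers would carry 29.0 CPM in S/S TNF. With barcodes of several gates left out, the erythroid log2 ratio of Socs3 in S/S mice was 1.12, against 3.42 with them.

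**Figure D5:**
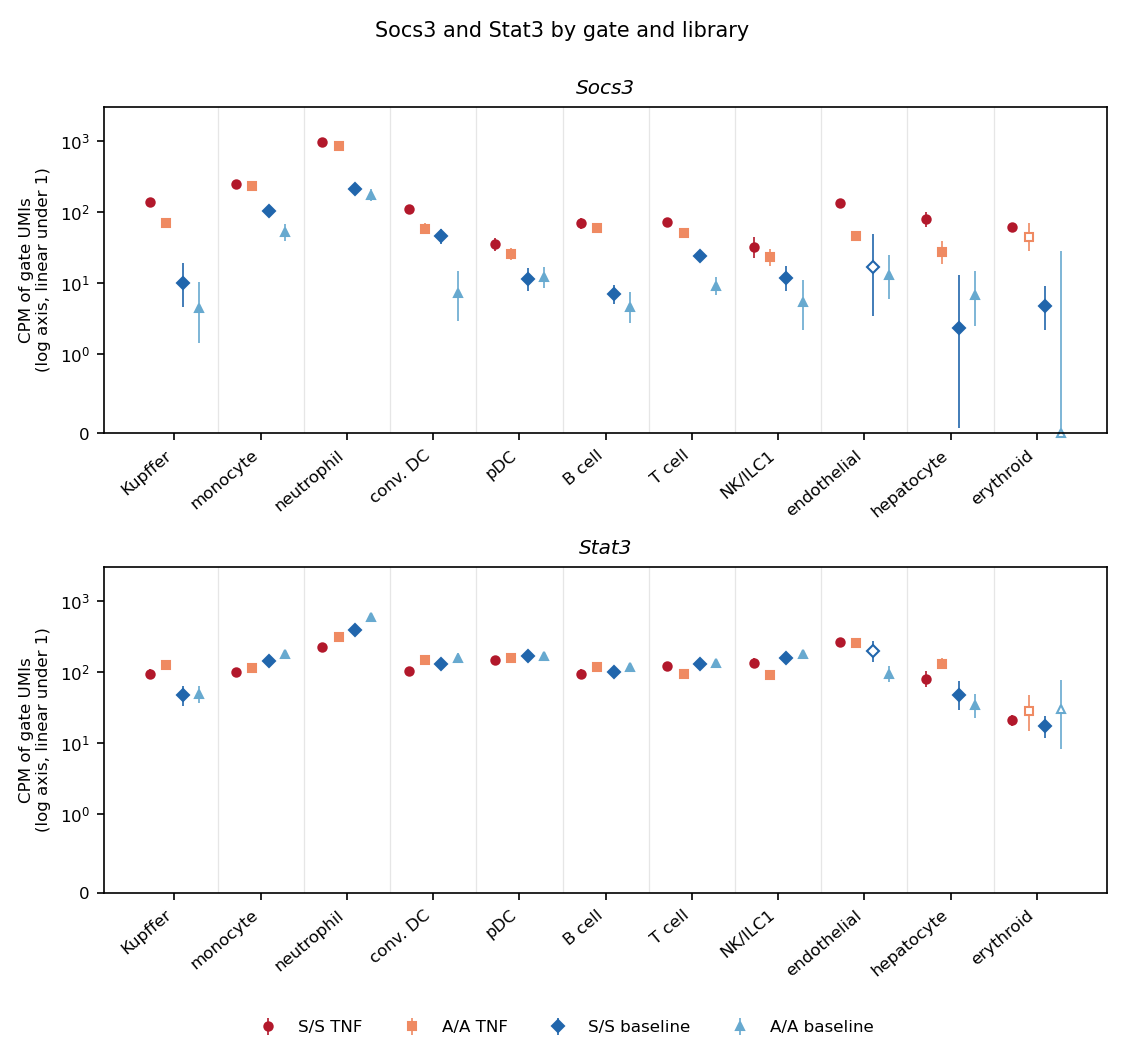
Levels of Socs3 and Stat3 by gate and library, in CPM of the gate (axis linear under 1 and logarithmic above), with 95% Poisson intervals as bars and open symbols for gates under 50 cells. Socs3 is higher in both TNF libraries than in both baseline libraries in the Kupffer, monocyte, neutrophil and B cell gates, while Stat3 differs less and is lower after TNF in neutrophils.

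Other genes of the pathway were followed as 8 lists of 86 distinct genes. Genes are named from the gate that held most UMIs of the list in that comparison. Counts are also given for acute phase genes in hepatocytes and for STAT3 targets in endothelium and hepatocytes. In the comparisons with a TNF library these gates did not hold most UMIs of those lists. Among the other family ligands, Ebi3, a subunit of IL-27 and IL-35, was 250.4 CPM in the neutrophil gate of S/S TNF, 328 CPM in A/A TNF, 45.5 CPM in S/S baseline and 43.6 CPM in A/A baseline. It was 5.51-fold higher after TNF in S/S mice and 7.52-fold higher in A/A mice. In each genotype, 2 of 3 measured ligands were at least 2-fold higher in that gate, where 11.5% of all genes were in S/S and 16.4% in A/A mice. Besides Ebi3 this was Clcf1, with 26 UMIs in S/S TNF, 53 in A/A TNF, 0 in S/S baseline and 1 in A/A baseline, whose intervals include 1 in both genotypes. Of 3 measured receptor subunits in the S/S neutrophil gate, where 11.5% of all genes were higher and 39.1% lower, 1 was past 2-fold upward and 2 downward. The upward one, Il11ra1, had 25 UMIs in S/S TNF and 1 in S/S baseline, a ratio of 2.77 [0.453 to 113.7]. The others were Il31ra, with 0 UMIs in S/S TNF and 361 UMIs in S/S baseline, and the sorting receptor Sorl1, at 738 CPM in S/S TNF and 2068 CPM in S/S baseline. Among the 5 measured proteases and partners that shed Il6ra in S/S monocytes, Adam10 was 0.444 of baseline and Rhbdf2, a carrier of the protease ADAM17, was 1.82-fold higher, with 0.433 and 1.75 in A/A monocytes.

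In the S/S monocyte gate 10.7% of all genes were at least 2-fold higher and 22.4% lower after TNF. Of 10 measured kinases, STATs and adaptors there, 1 was higher and 4 lower, including the adaptor Gab1 at 0.145 of baseline and Stat5b at 0.201. Among 9 other feedback inhibitors in S/S monocytes, 2 were higher after TNF, Cish at 4.2-fold and Socs2 at 2.73-fold, and 1 was lower, the STAT inhibitor Pias1 at 0.324. In A/A neutrophils, Cish had 257 UMIs after TNF and 0 at baseline, at least 6.71-fold higher.

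Known STAT3 targets had list medians above those of all genes after TNF in the gates described. In S/S monocytes 7 of 18 were at least 2-fold higher and 1 lower, where 10.7% of all genes were higher and 22.4% lower. The list median there was 0.64 on the log2 scale against -0.23 for all genes. Il1rn, the interleukin 1 receptor antagonist, led at 18.6-fold [15.5 to 22.5]. In A/A neutrophils 8 of 15 were higher and 2 lower (list median 1.21, all genes -0.35), where 16.4% of all genes were higher and 30.8% lower, with Il1rn 8.28-fold and the kinase gene Pim1 6.56-fold higher. In the A/A endothelial gate 13 of 17 were higher and 1 lower (list median 2.59, all genes 0.08), where 21.8% of all genes were higher and 18.1% lower. Between genotypes after TNF, 0 of 17 in neutrophils passed 2-fold, where 2.34% of all genes were higher and 2.19% lower in S/S, and 3 of 17 in endothelium and 4 of 13 in hepatocytes were higher in S/S, where 3.96% and 7.80% of all genes were. Several of these targets respond to other signals as well.

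The acute phase genes, whose induction in hepatocytes is the textbook outcome of IL-6 signalling, differed by genotype in the hepatocyte gate. After TNF, 2 of 19 were at least 2-fold higher and 2 lower in S/S mice (list median 0.09, all genes 0.14), where 17.6% of all genes were higher and 6.21% lower, whereas 12 of 20 were higher and 0 lower in A/A mice (list median 1.54, all genes 0.34), where 19.4% of all genes were higher and 6.22% lower. At baseline, 6 of 17 were higher and 1 lower in S/S against A/A, where 17.8% of all genes were higher and 9.84% lower, led by the iron-binding lipocalin Lcn2 at 1162 CPM in S/S and 40.3 CPM in A/A, a ratio of 28.8 [20.5 to 41.7]. Orm2 was 9.42-fold and Saa2 7.05-fold higher in S/S at baseline. After TNF, 0 of 20 were higher and 6 lower in S/S than in A/A (list median -0.70, all genes 0.05), where 4.41% of all genes were lower. These baseline values came at a median depth of 1134 UMIs in the S/S hepatocyte gate and 1516.5 UMIs in the A/A one.

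Acute phase transcripts also appeared in non-hepatocyte gates. In the neutrophil gate 14 of 19 were higher after TNF in S/S mice and 14 of 17 in A/A mice, where 11.5% and 16.4% of all genes were, with Lcn2 at 8285 CPM in A/A TNF and 183 CPM in A/A baseline, 45.2-fold [37.8 to 54.4] higher. Lcn2 is a known neutrophil granule gene. The 10 hepatocyte markers in that gate summed to 723 CPM in S/S TNF, 392 CPM in A/A TNF, 276 CPM in S/S baseline and 329 CPM in A/A baseline, and their part in the count was not tested. Of 12 measured regulators of Il6 transcription in S/S monocytes, 5 were higher after TNF and 0 lower, where 10.7% and 22.4% of all genes were, with the AP-1 gene Fosl1 8.94-fold [3.42 to 33.3], the IkB-zeta gene Nfkbiz 3.93-fold and Jun 2.27-fold higher. In A/A neutrophils 6 of 11 were higher, where 16.4% of all genes were, among them Cebpb and Rela, both 3.33-fold.

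The genes whose levels ran most like each member were ranked over 44 combinations of gate and library, which share libraries and depth, by Pearson's r of log2 levels among 11410 genes. For Il6 they were Serpinb2 (0.962), Alox15 (0.913) and Prg4 (0.898), all 3 of the set that marked the deep Kupffer-gate barcodes. For Osm they were Gm43181 (0.931), the neutrophil collagenase gene Mmp8 (0.917) and Gm10686 (0.908). For Socs3 they were Lilrb4a (0.929), the cystine transporter gene Slc7a11 (0.922) and the C-type lectin gene Clec4e (0.919). Osmr ran closest to Tmem132e (0.984), Ecscr (0.983) and Tmem47 (0.981), and Il6st to Kctd17 (0.901), Lrrc58 (0.896) and Ece1 (0.889). Il6ra ran closest to Nfam1 and Cd300a (both 0.884) and Themis2 (0.863), Lifr to Arhgap32 (0.876), Stat3 to Dync1li1 (0.884) and Lif, with the weakest likeness, to Lhfpl4 (0.644).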

How the data were processed

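The deposited matrices hold raw counts of UMIs per gene and barcode. Per the submitters' processing notes they come from Cell Ranger, version 6.1.2 for both TNF and 7.1.0 for both baseline libraries, on the mm39 build, and per the labels' protocols from 3′ libraries. The deposited TNF tables hold no barcode under 250 genes, while baseline tables reach 67 genes (S/S) and 50 genes (A/A). Cells were kept from 300 detected genes upward and up to a mitochondrial share of 20%. Libraries shared 2 to 11 barcodes per pair.

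A marker counted in a cell when its share of UMIs was at least 2 times its mean share. A cell took the class with the largest fraction of its markers counted, with at least 3 required. UMIs were summed per gate. Log2 ratios add 1 CPM, while printed ratios add nothing. Intervals at 95% are exact (Poisson for levels, binomial for shares and ratios). Against 0 UMIs the floor was 3 UMIs. Intron lengths are from the GENCODE annotation and promoters are from RefSeq. Python 3.11.15 with numpy 2.4.6, scipy 1.17.1, pandas 2.3.3 and matplotlib 3.10.9 was used, and the ratio code was tested on simulated data.

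All 9 members are named, and from each of the 8 lists up to 3 genes with the largest ratio in the gate with most UMIs of the list. Likeness was ranked among genes with at least 500 UMIs on the log2(CPM + 10) scale. The members and lists were chosen with earlier results of these data known. Another cell filter, looser, stricter and exclusive gates, omission of the top barcode, another pseudocount, thinning, another total and a higher UMI minimum were tried. The 3 promoter motifs were chosen after the expression values were seen, and the NF-kB motif was shortened by 1 letter for a reason of format and not for its matches. Shares of all genes past 2-fold were computed for every gate and are given for part of the Kupffer, monocyte, neutrophil, endothelial and hepatocyte comparisons. A gene of the kinase and adaptor list is not reported here.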

Additional observations from a re-analysis of the deposited data

Results flagged for a closer look

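Il6ra in the Kupffer gate had log2 TNF ratios of 1.38 in S/S and -0.99 in A/A mice, a difference of 2.37 between the genotypes with each counting interval on its own side of 0. In the same gate, Lifr had log2 TNF ratios of 1.28 in S/S and -1.23 in A/A mice, a difference of 2.5. Without the barcodes of the Gata6-associated genes the S/S value of Lifr was 1.07 [-0.04 to 2.59], an interval that includes 0. Il6ra in the T cell gate had 0.45 in S/S and -0.48 in A/A mice, a difference of 0.931, and with barcodes of several gates left out the A/A value was -0.13. With 1 library per group, none of these differences was tested.

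The basophil or mast cell gate was too small for the comparisons, with 3 cells in S/S TNF, 12 in A/A TNF, 3 in S/S baseline and 2 in A/A baseline. It held 15 Il6 UMIs in S/S TNF, 29 in A/A TNF, 1 in S/S baseline and 1 in A/A baseline. It held 18 Osm UMIs in S/S TNF, 70 in A/A TNF, 3 in S/S baseline and 0 in A/A baseline. In the A/A TNF library these few cells carried 7.09% of all Il6 UMIs and 2.96% of all Osm UMIs.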

How the results depend on the processing

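No paired analysis was possible because each group was 1 library, and for the same reason no replicate could be left out. Of 1842 log2 ratios recomputed, 1727 stayed within the main counting interval, or between it and the main value. Another 114 moved outside it and 1 reversed its sign, where reversals were scored only for main ratios at least 2-fold apart. Thinning to 1000 UMIs a cell alone moved 58 of the 126 ratios left under that setting. The reversal was Il6 in the Kupffer gate for S/S TNF against A/A TNF, at -1.05 without the barcodes of the Gata6-associated genes, a setting chosen after seeing the data. That setting also moved the Kupffer share of Il6 to 15.1% in S/S TNF and 33.0% in A/A TNF, and the monocyte share to 64.8% in S/S TNF and 48.4% in A/A TNF. Without the barcode with the most Il6, the Kupffer share in S/S TNF was 53.5%.

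Counts of combinations at least 2-fold apart moved as follows. Those lower in S/S TNF than in A/A TNF numbered 5 when cells needed 500 detected genes and a mitochondrial share up to 10%, and 5 with barcodes of several gates left out. Those lower in S/S baseline than in A/A baseline numbered 3 with barcodes of several gates left out. A pseudocount of 10 CPM gave 5 lower in A/A TNF than in A/A baseline and 2 higher in S/S baseline than in A/A baseline. Thinning to 1000 UMIs left 29 combinations in S/S and 35 in A/A mice for the TNF comparisons, of which 11 and 13 were higher after TNF, and 2 of 27 were higher in S/S baseline than in A/A baseline. For these the cause was not tested, beyond the smaller number of combinations left.

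Shares of ligand UMIs moved with the cell filter and gates. With 500 genes needed, the S/S TNF shares were 48.6% (Kupffer) and 26.2% (monocyte) for Il6, and 60.9% (neutrophil) and 25.9% (monocyte) for Osm. With 2 more markers, Il6 was 30.9% in S/S TNF and 36.2% in A/A TNF (Kupffer) and 25.6% in S/S TNF (monocyte), and Osm was 59.3% and 71.0% (neutrophil) and 20.3% and 8.85% (monocyte) in S/S TNF and A/A TNF. With barcodes of several gates left out, Il6 was 36.0% in S/S TNF and 30.1% in A/A TNF (Kupffer) and 24.1% in S/S TNF (monocyte), and Osm was 59.4% in S/S TNF and 68.6% in A/A TNF (neutrophil) and 19.6% in S/S TNF (monocyte). Over all genes with at least 100 UMIs, 2.25% were higher and 1.46% lower in S/S TNF than in A/A TNF, and 4.19% higher and 2.47% lower in S/S baseline than in A/A baseline. The stricter gates hold fewer cells, and the other causes were not tested. Depth limited Lif and the baseline levels of Il6 and Osmr, which rest on a few UMIs.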

Other observations

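Il31ra, a receptor of the same family on the extended list, separated the treatments in a way no member did. It had 17 UMIs in S/S TNF, 11 in A/A TNF, 10311 in S/S baseline and 30175 in A/A baseline. A UMI was present in 0.308% of cells in S/S TNF, 0.155% in A/A TNF, 71.8% in S/S baseline and 93.6% in A/A baseline. The deposited TNF and baseline tables come from different versions of the authors' software, which cannot be told apart from TNF here.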
